A study of Mus musculus with 4 samples.

Results

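Phospho-CREB peaks were described at the 3 genes of the Nr4a family of orphan nuclear receptors, Nr4a1, Nr4a2 and Nr4a3, in MC3T3-E1 cells, a clonal mouse pre-osteoblast line. The cells had received 100 nM forskolin or DMSO vehicle for 1 h, with 2 libraries per treatment. Forskolin activates adenylyl cyclase and so raises cAMP, and the antibody recognises CREB that carries a phosphate at serine 133. Peaks of the 4 lists were merged into regions where they shared at least 1 bp, and a region belonged to a gene when it lay inside it or had its centre within 100 kb of one of its transcription start sites (TSS). This gave 22 of 28335 regions, 10 at Nr4a1, 6 at Nr4a2 and 6 at Nr4a3. The lists hold peaks and no expression values, so the labelled cell type could not be checked against marker genes.

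The 3 receptors, also known as Nur77 (Nr4a1), Nurr1 (Nr4a2) and Nor1 (Nr4a3), are transcription factors that act without a known physiological ligand. They bind the monomer site AAAGGTCA, called NBRE, and Nr4a1 and Nr4a2 also pair with retinoid X receptors. All are immediate early genes. In osteoblasts parathyroid hormone induces them mainly through cAMP and protein kinase A, which phosphorylates CREB, and phosphorylated CREB bound at cAMP response elements (CRE, full form TGACGTCA, core TGACG) recruits co-activators.

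The forskolin lists held 25566 and 19371 peaks, and the vehicle lists 14686 and 10180. Each peak carries the authors' score, whose scale is not stated, so ranks were used: the percentile is the share of peaks of the same list with a lower score, with tied peaks placed at the middle of their tie. Below a score of 50, scores fell on whole multiples of a step. If that step is 1 tag, the median peak held 62.0 and 21.1 tags in the forskolin lists and 47.8 and 46.8 in the vehicle lists, and forskolin replicate 2 was sequenced to 0.347 of the depth of its partner.

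The regions that carry the results lay at the start sites of the 3 genes or within a few kb upstream of them, except for a distal one upstream of Nr4a1 and one downstream of it that was called only after forskolin. Their mm9 sequences are given on the strand of the gene without annotated untranslated bases. Capitals mark CRE cores and full CREs on either strand, CGTCA being the core read from the other strand.
Nr4a1 promoter, -33 bp, chr15:101097095-101097276, plus strand: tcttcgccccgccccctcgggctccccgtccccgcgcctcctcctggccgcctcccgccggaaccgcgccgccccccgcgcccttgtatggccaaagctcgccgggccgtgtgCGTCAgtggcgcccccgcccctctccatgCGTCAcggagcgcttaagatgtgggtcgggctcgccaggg
Nr4a1 upstream, -6286 bp, chr15:101090842-101091140, plus strand: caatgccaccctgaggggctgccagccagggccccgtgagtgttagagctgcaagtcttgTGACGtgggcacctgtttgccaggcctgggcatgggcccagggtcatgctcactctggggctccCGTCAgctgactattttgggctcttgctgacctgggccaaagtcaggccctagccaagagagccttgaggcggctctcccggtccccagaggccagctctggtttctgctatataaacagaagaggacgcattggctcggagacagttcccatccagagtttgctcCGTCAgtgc
Nr4a1 upstream, -20348 bp, chr15:101076780-101077078, plus strand: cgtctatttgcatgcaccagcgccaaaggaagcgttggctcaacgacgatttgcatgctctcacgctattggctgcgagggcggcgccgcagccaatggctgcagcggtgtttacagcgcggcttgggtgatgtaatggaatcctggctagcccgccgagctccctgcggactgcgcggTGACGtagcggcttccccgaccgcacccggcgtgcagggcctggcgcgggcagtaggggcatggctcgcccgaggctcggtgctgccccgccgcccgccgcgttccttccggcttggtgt
Nr4a1 downstream, forskolin-only, 12908 bp, chr15:101110036-101110334, plus strand: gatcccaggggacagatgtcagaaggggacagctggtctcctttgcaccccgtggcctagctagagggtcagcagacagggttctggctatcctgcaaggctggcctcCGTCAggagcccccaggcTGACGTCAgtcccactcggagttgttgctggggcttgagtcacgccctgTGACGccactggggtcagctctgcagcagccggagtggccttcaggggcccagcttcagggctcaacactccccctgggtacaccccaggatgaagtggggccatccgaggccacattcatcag
Nr4a2 internal promoter, 45 bp, chr2:56967450-56967553, minus strand: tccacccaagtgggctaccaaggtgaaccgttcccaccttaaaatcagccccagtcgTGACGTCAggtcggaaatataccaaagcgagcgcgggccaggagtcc
Nr4a2 intron, -1727 bp, chr2:56969027-56969325, minus strand: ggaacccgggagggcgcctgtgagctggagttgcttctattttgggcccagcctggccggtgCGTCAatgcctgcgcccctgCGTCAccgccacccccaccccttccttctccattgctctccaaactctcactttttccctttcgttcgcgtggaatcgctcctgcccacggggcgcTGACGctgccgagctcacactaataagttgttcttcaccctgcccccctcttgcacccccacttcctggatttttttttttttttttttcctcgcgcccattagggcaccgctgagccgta
Nr4a3 promoter, -80 bp, chr4:48057796-48058024, plus strand: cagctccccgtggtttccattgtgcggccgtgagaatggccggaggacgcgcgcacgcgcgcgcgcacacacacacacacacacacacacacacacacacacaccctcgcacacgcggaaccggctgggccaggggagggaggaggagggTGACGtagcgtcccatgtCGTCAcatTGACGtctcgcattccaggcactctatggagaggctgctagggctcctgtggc
Nr4a3 upstream, -1635 bp, chr4:48056241-48056539, plus strand: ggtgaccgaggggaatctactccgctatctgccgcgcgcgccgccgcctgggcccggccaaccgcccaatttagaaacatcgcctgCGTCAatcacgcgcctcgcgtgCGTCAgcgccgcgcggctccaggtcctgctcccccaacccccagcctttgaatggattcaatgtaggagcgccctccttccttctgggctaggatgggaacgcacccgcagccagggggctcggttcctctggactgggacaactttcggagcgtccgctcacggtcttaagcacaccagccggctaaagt
In windows that keep the untranslated bases, the matches were densest at the promoter of Nr4a3, the internal promoter of Nr4a2 and the downstream region of Nr4a1. These counts can differ from the capitals above, which lack untranslated bases and can lie beyond the window. Within 100 bp of the region centre, the Nr4a3 promoter region (-80 bp), the Nr4a2 internal promoter region (45 bp) and the Nr4a1 downstream region (12908 bp) each held 4 core matches, the full palindrome counting as 2. Only 0.3% of all 28335 regions held as many in a window of this length. The GC content of these windows was 62.7%, 68.2% and 65.7% in the same order, against a median of 52.2% over all regions. The core itself contains CG, and the part of base composition in these counts was not tested. The Nr4a2 intronic region (-1727 bp) held 3, reached by 1.3% of all regions. Nr4a1 at -33 bp and -6286 bp and Nr4a3 at -1635 bp held 2 each, reached by 7.4%, and Nr4a1 at -20348 bp held 1, reached by 29.1%.

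Nr4a3 and Nr4a2 had promoter regions among the strongest of every list, and their mean vehicle percentiles, 94.6 and 91.8, differed by less than the spread between the vehicle libraries at Nr4a2. The Nr4a3 region (chr4:48057786-48058104) lay at -80 bp from the nearer of its upstream start sites. It had scores of 163.7 and 119.8 in the forskolin lists, against 51.7 and 35.0 in the vehicle lists. The percentiles were 99.1 and 99.0 with forskolin and 96.2 and 93.0 with vehicle. The groups did not overlap, and the percentile scale left at most a few points for it to move. The mean difference, forskolin minus vehicle, was 4.4 points, or 2.8 points without vehicle replicate 2, and the peak centres of the 4 libraries lay within 12 bp of each other.

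Nr4a2 has 4 annotated start sites, and its strongest peak lay at the internal ones and not at the 5′ end of the gene. The region chr2:56967245-56967563 covered the start site at 56967449, with its centre in a 5′ untranslated exon. Scores were 170.9 and 150.1 in the forskolin lists, against 47.6 and 26.0 in the vehicle lists. Percentiles were 99.2 and 99.5 with forskolin and 95.5 and 88.0 with vehicle, a mean difference of 7.6 points without overlap of the groups, and of 3.9 points without vehicle replicate 2. The full CRE printed for it lay 88 bp upstream of the region's centre, on the upstream side of the start site.

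A second Nr4a2 region of similar rank lay in an intron, at -1727 bp from that start site (chr2:56968940-56969413). Scores were 153.7 and 125.3 in the forskolin lists, against 23.9 and 15.7 in the vehicle lists. Its percentiles were 99.0 and 99.1 with forskolin and 84.6 and 73.9 with vehicle, a mean difference of 19.8 points. The forskolin peaks had their centres 1 bp apart, whereas the vehicle peaks had theirs 172 bp apart.

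At the 5′ end of Nr4a2 the signal ranked below that of the internal promoter and was divided. A region at -357 bp (chr2:56976594-56976948) had percentiles of 68.6 and 74.2 with forskolin and 9.8 in vehicle replicate 1, with no peak in vehicle replicate 2. Inside the first intron, at 484 bp, lay the only region of the family called in both vehicle libraries and neither forskolin library (chr2:56975755-56976106, percentiles 39.8 and 21.2). Over all regions, 0.441% were of this vehicle-only kind. Peaks within 500 bp of each other, when joined, turned these 2 regions into 1 region of all 4 libraries, and the vehicle-only call was gone.

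Nr4a1, whose product is Nur77, had its promoter region at -33 bp (chr15:101097080-101097409). Scores were 87.6 and 58.5 in the forskolin lists, against 18.8 and 12.6 in the vehicle lists. Percentiles were 96.1 and 94.2 with forskolin and 77.4 and 62.5 with vehicle. The mean percentile was 95.1 with forskolin and 70.0 with vehicle, a difference of 25.2 points. It was 17.8 to 32.6 points when each library was left out in turn. This promoter region ranked below the strongest region of Nr4a2 and of Nr4a3 in each of the 4 libraries.

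The largest change of rank in the family was at the Nr4a1 region at -6286 bp (chr15:101090823-101091159, intergenic). It had scores of 96.7 and 57.8 in the forskolin lists, against 6.5 and 9.0 in the vehicle lists. Its mean percentile was 95.4 with forskolin and 22.3 with vehicle, and only 0.45% of the 8930 regions called in all 4 libraries had a difference as large as its 73.1 points. If a score step is 1 tag, the vehicle peaks rested on 28 and 40 tags. The region's vehicle percentiles were 7.7 and 36.9, and the difference was 58.6 to 87.7 points when each library was left out in turn. Both vehicle peaks stood below percentile 50, so with the top 50% of each list the region was forskolin-only by construction. With lists of equal length it had a peak in both forskolin libraries and 1 vehicle library.

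The highest-ranked Nr4a1 region was neither of these but one at -20348 bp (chr15:101076752-101077106, intergenic). Scores were 122.9 and 110.1 in the forskolin lists, against 41.1 and 35.9 in the vehicle lists. Percentiles were 98.0 and 98.7 with forskolin and 94.0 and 93.4 with vehicle, so this distal region was strong under both treatments. The nearest start site of any other protein-coding gene, that of Grasp, which encodes a scaffold protein, was 22291 bp away.

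**Figure D1:**
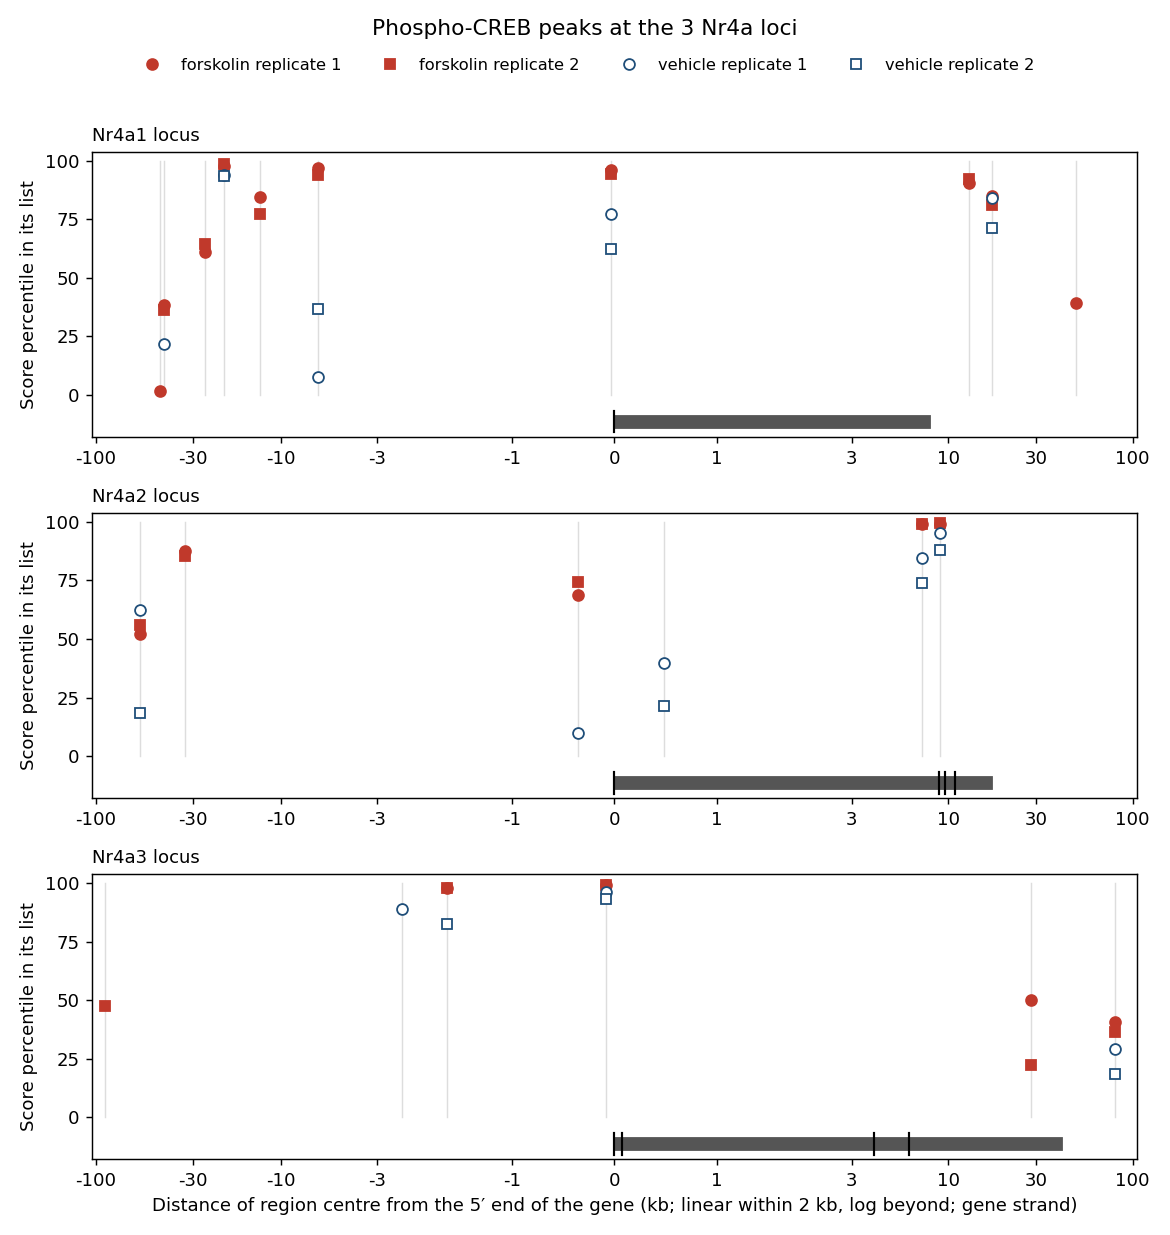
Score percentile of every phospho-CREB peak at the 3 Nr4a loci (vertical axis, within its own list) by distance from the 5′ end of the gene in kb (horizontal axis, linear within 2 kb and logarithmic beyond, along the gene's strand). Filled red symbols are the 2 forskolin libraries, open blue symbols the 2 vehicle libraries, grey bars the genes and black ticks their annotated start sites. At the promoters of Nr4a1 and Nr4a3 and the internal promoter of Nr4a2, forskolin symbols sit at percentiles of 94.2 and above, with vehicle symbols below them.

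Upstream of Nr4a3, the call at -1635 bp depended on how 1 vehicle peak was placed. The region (chr4:48056219-48056562) had percentiles of 97.7 and 97.9 with forskolin and 82.6 in vehicle replicate 2, and no peak of vehicle replicate 1. That library instead had a peak at -2204 bp (chr4:48055671-48055971, percentile 88.9), 247 bp short of the region. Joining peaks within 500 bp made this 1 region of all 4 libraries. Both pieces lay between genes and held CRE cores, 2 in the first and 1 in the second.

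Across the family, 9 of the 22 regions had a peak in all 4 libraries, 3 in both forskolin libraries and 1 vehicle library, 5 in both forskolin libraries only, 1 in both vehicle libraries only and 4 in a single library. Over all regions, 31.5% were of the first kind, 12.1% were of the second, 18.3% were forskolin-only and 30.2% came from a single library. How the forskolin-only share compared with that background depended on the peaks used. It was 5 of 22 regions against 18.3% with whole lists, 5 of 17 against 10% with lists of equal length, and 6 of 15 against 20.6% with the top 50% of each list. At the gene level, 40% of the 22380 annotated protein-coding genes had at least 1 forskolin-only region inside or within 100 kb, and all 3 members did. Nr4a1 had 3, a number reached by 6.5% of genes, and Nr4a2 and Nr4a3 had 1 each. No forskolin-only region had its centre within 10 kb of a member's start site, where 8.86% of genes had one.

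The forskolin-only regions at the Nr4a1 locus flanked the gene. The one downstream at 12908 bp (chr15:101110016-101110355) had percentiles of 90.5 and 92.2 and contained the full CRE together with an AP-1 site (TGAGTCA). It is nearer to the start site of 9430023L20Rik, at -4547 bp. The one at -12873 bp (chr15:101084208-101084601) had percentiles of 84.4 and 77.4, and the one at -25813 bp (chr15:101071286-101071642) 61.3 and 64.3. Neither of these 2 held a CRE core within 100 bp of its centre, but the whole region at -12873 bp held 2. The region at -25813 bp is nearer to the start site of Grasp, at 16826 bp. Only the region at -12873 bp has Nr4a1 as the gene of its nearest start site.

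Nr4a2 had its forskolin-only region at -32962 bp (chr2:57009216-57009537), at percentiles 87.8 and 85.6, and the nearest start site of another protein-coding gene was that of Gpd2, to which it lay at -80670 bp. It held 1 CRE core. The intronic forskolin-only region of Nr4a3 stood 21857 bp downstream of a start site (chr4:48085813-48086141). It was the weakest of the 5, at percentiles of 49.9 and 22.2, and held a CRE core and an AP-1 site. In all, 3 of the 5 stood at percentile 75 or above in both forskolin lists, as did 8.48% of the 5187 forskolin-only regions of the series. The mark of 75 was not among the planned comparisons. With each list shortened to the 10180 top-scoring peaks of the shortest, the 3 regions of Nr4a1 and that of Nr4a2 were still forskolin-only, while that of Nr4a3 had no peak. The Nr4a2 region at -357 bp then joined the class.

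**Figure D2:**
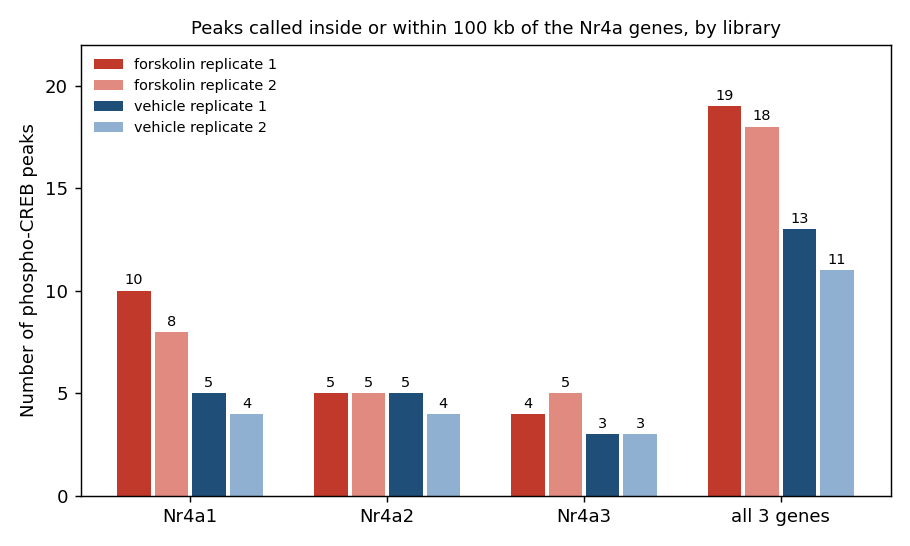
Number of phospho-CREB peaks inside or within 100 kb of each Nr4a gene and of all 3 together (vertical axis) in each library (bars). Both forskolin libraries had more peaks than both vehicle libraries at Nr4a1 (10 and 8 against 5 and 4) and at Nr4a3 (4 and 5 against 3 and 3), while the groups touch at Nr4a2 (5 and 5 against 5 and 4).

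Counted by library, the 3 loci held 19 and 18 peaks in the forskolin libraries, against 13 and 11 in the vehicle libraries. This made 18.5 ± 0.707 peaks per forskolin library and 12 ± 1.41 per vehicle library (SD, n = 2 each), a difference of 6.5 peaks that was larger than the spread between replicates. The ratio of the means, forskolin over vehicle, was 1.54 at the loci and 1.81 for the whole lists. An exact two-sided permutation test gave p = 0.333, the smallest value that 2 libraries against 2 allow. Most of the difference came from the Nr4a1 locus, with means of 9 and 4.5. At this locus 6 of the 10 regions had their nearest start site at another gene, against 1 of 6 at Nr4a2 and 1 of 6 at Nr4a3. With each list at the length of the shortest, the means were 13.5 and 10 and the difference 3.5 peaks (exact permutation p = 0.333). Within 10 kb of the start sites or inside the genes the difference was 0.5 peaks (exact permutation p = 1).

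Forskolin ranks were the higher ones at the shared regions nearest to the members themselves. Of the 9 regions called in all 4 libraries, 7 had both forskolin percentiles above both vehicle percentiles, and so had 44.6% of all 8930 such regions. The reverse, both forskolin percentiles below both vehicle percentiles, was found at 0 of the 9 and at 2.51% of all. The forskolin lists are longer, and over all 8930 regions the median difference in percentile was 6.9 points. Ranked only among regions called in all 4 libraries, so that each library contributes as many peaks, 6 of the 9 stood apart upwards, against 18.4% of all. On this scale 1 of the 9, at 17175 bp from Nr4a1, stood apart downwards, against 31.3% of all. The median difference on that scale was 4.8 points for the 9 and -2.3 points for all 8930. These 6 were exactly the regions whose nearest start site belongs to a member, a split made after the values were seen. The remaining 3 lay nearest to another gene.

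On the same scale the 6 regions differed widely in size. The difference was 72.5 points at -6286 bp and 27.8 points at -33 bp of Nr4a1, and 24.6 points at -1727 bp of Nr4a2. It was 8.8 points at the Nr4a2 internal promoter, 4.8 points at the Nr4a3 promoter and 4.6 points at -20348 bp of Nr4a1. These last regions already stood at percentile 86.5 or above among shared regions in both vehicle lists and had little room to rise. A difference as large as theirs was found at 20.53%, 26.36% and 26.49% of shared regions, against 0.45%, 7.87% and 8.99% for the first group.

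**Figure D3:**
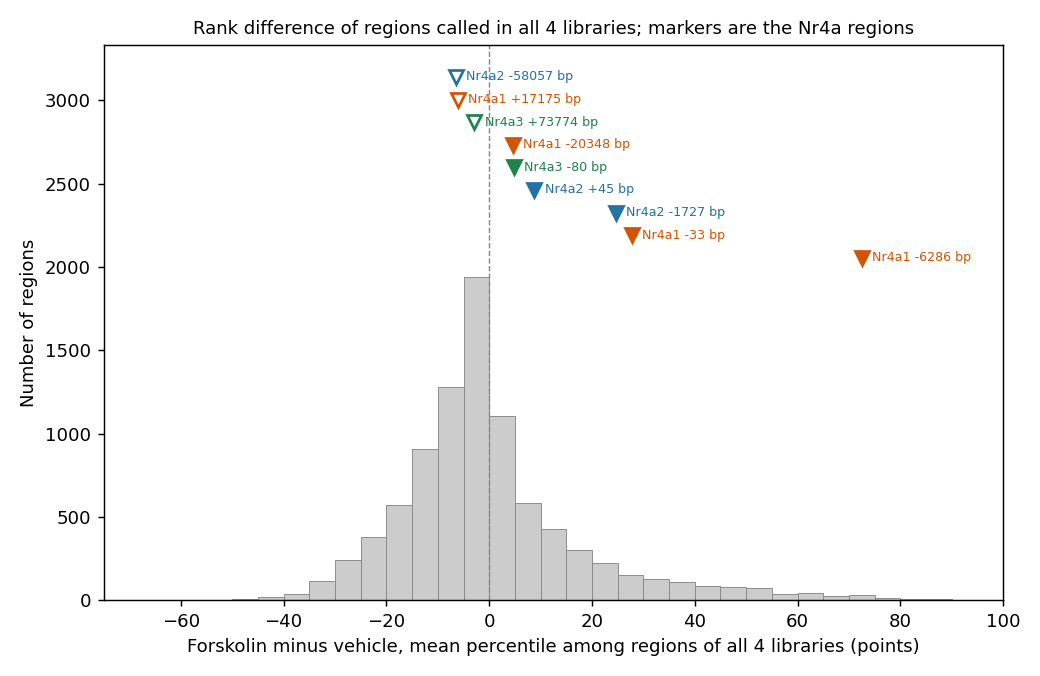
Difference in mean percentile, forskolin minus vehicle, of the 8930 regions called in all 4 libraries (horizontal axis, in points, ranked among these regions) and number of regions per 5-point bin (grey bars, vertical axis). Triangles mark the 9 Nr4a regions (their height carries no value), filled where the nearest start site is that of the member and open where it is another gene's. The 6 filled triangles lie between 4.6 and 72.5 points, the 3 open ones between -6.5 and -2.9.

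The 3 shared regions nearer to another gene lay between 17175 and 73774 bp from a member's start site. One lay at the promoter of 9430023L20Rik, -280 bp from its start site and 17175 bp from that of Nr4a1, at percentiles 84.9 and 81.1 with forskolin and 84.3 and 71.3 with vehicle. One covered the start of Stx17, which encodes a SNARE protein of autophagosome fusion, 73774 bp from Nr4a3, at 40.5 and 36.4 with forskolin and 29.0 and 18.4 with vehicle. The last lay at -58057 bp from Nr4a2, in a gap before Gpd2, which encodes the mitochondrial glycerol-3-phosphate dehydrogenase. There the vehicle percentiles (62.5 and 18.4) spanned the forskolin ones (52.3 and 55.9), and the 4 peaks were a chain whose centres spread over 296 bp. A region at the promoter of Grasp, -42663 bp from Nr4a1, had a peak in both forskolin libraries and vehicle replicate 1 at percentiles of 38.3, 36.4 and 21.9. Ranked among shared regions, the 3 regions of all 4 libraries differed by -6.1, -2.9 and -6.5 points.

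**Figure D4:**
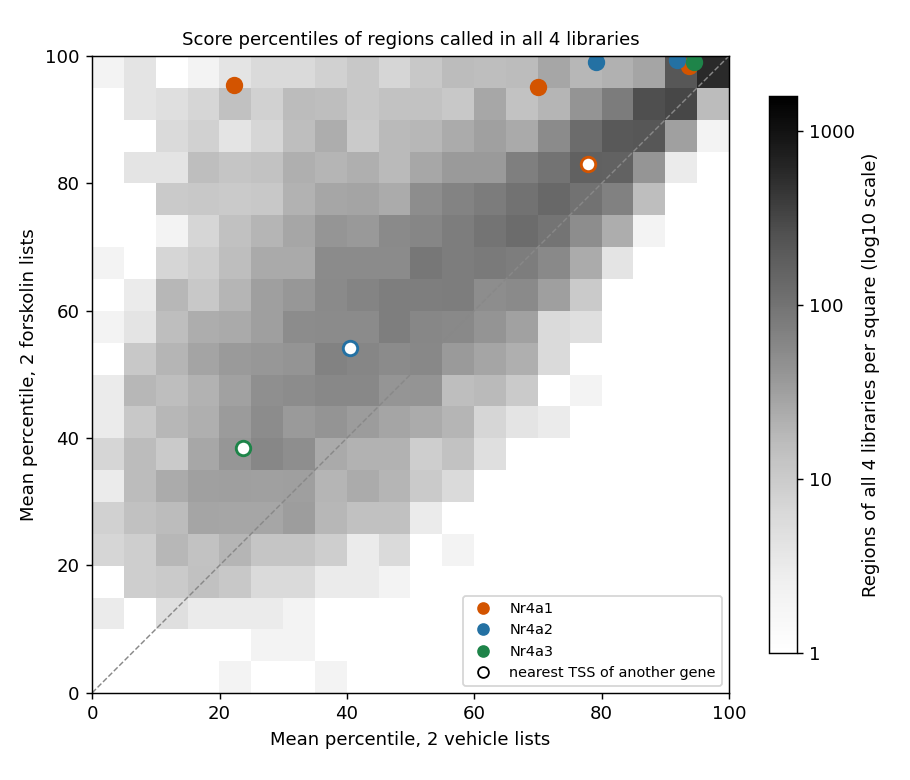
Mean score percentile in the 2 forskolin lists (vertical axis) against that in the 2 vehicle lists (horizontal axis) for the 8930 regions called in all 4 libraries (grey squares, darker where more regions fall, log10 scale). Coloured circles are the 9 Nr4a regions, open where the nearest start site is another gene's, and the dashed line marks equal percentiles. The Nr4a1 region at -6286 bp stands at 95.4 with forskolin and 22.3 with vehicle, far above the line, while the promoter of Nr4a3 lies near the upper right corner at 99.0 and 94.6.

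CRE cores divided the shared regions in the same way, by the split made after the rank values were seen. All 6 shared regions nearest to a member held a TGACG core within 100 bp of the centre on one strand or the other, and 0 of the 3 nearer to another gene did, where 39.3% of all regions called in 4 libraries had one. The forskolin-only regions were not divided in this way. A core was held by 2 of the 3 nearest to a member and by 1 of the 2 nearer to another gene. Over the 22 regions, 12 held a core and 3 a full CRE, against 29.1% and 3.53% of all 28335 regions in windows of the same length. Besides the regions of Nr4a2 (45 bp) and Nr4a1 (12908 bp), the full CRE occurred at -90012 bp of Nr4a3 (chr4:47967862-47968164), in a region that only forskolin replicate 2 called, at percentile 47.5. AP-1 sites were found in 2 of the 22 regions and in 13.8% of all, and the RUNX motif TGTGGT in 2 of the 22 and 24.2% of all. The receptors' own monomer site AAAGGTCA was in none of the 22 windows and in 0.879% of all. Such matches are letters in a window and not measured binding sites.

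Among 9927 genes with a region within 1 kb of a start site, the promoter profiles most like those of the members were found by distance over the 4 percentiles. For Nr4a1 they were Lmna (nuclear lamins), Mbnl1 (a splicing regulator) and Arnt (a partner of hypoxia-inducible factors), at 4.44, 5.11 and 6.24 points. Lmna had percentiles of 98.7 and 97.4 with forskolin and 78.6 and 63.6 with vehicle. For Nr4a2 they were Cyb5d2 and Zzef1, which share 1 region, at 3.34 points, and E130116L18Rik at 3.75. For Nr4a3 they were Tomm20 (a mitochondrial import receptor), Rfc1 (a subunit of the DNA clamp loader) and Emd (emerin), at 1.31, 1.35 and 1.58 points. Each likeness rests on 4 libraries.

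Of 23 partners and targets of the receptors, 13 had a region within 10 kb of a start site, 8 had one called in all 4 libraries and 3 had a forskolin-only one. Over all protein-coding genes, the median was 1 region at that distance, so having one was common. Of these genes, 37.4% had a region of all 4 libraries there and 8.86% a forskolin-only one. Rxra and Cyp17a1 were among the 3. Rxra, the retinoid X receptor with which Nr4a1 and Nr4a2 can pair, had 3 forskolin-only regions within 10 kb of a start site and none of all 4 libraries. The highest-ranked was at -4231 bp (chr2:27527521-27527938, percentiles 64.9 and 31.9). The forskolin-only region at Cyp17a1, a steroidogenic enzyme, lay at 468 bp and was among the weakest peaks of both lists (percentiles 2.7 and 0.7).

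Spp1 and Bglap are targets of Nr4a2 in osteoblasts. Spp1, which encodes the bone matrix protein osteopontin, had 1 shared region at -8959 bp with overlapping percentiles, 62.9 and 36.4 with forskolin and 72.5 and 40.9 with vehicle. A further peak at -1984 bp was called in forskolin replicate 1, at percentile 36.1. Bglap, which encodes osteocalcin, had a single peak at -244 bp, of forskolin replicate 1 at percentile 18.5. Pomc, the classic pituitary target, and Th and Slc6a3, dopaminergic targets of Nr4a2, had 0 regions within 10 kb.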

How the data were processed

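Phospho-CREB chromatin immunoprecipitation was analysed from separate peak lists of the 4 libraries, not from pooled reads. Titles gave the groups and replicate numbers, and per the labels the replicates are biological. The submitters' processing notes name Bowtie, HOMER and build mm9. For versions, thresholds and the treatment of duplicate or multi-mapping reads, the sources used here say nothing. The score per peak is the authors' deposited value, of unstated scale. It served for ranking within its list and for the tag numbers. Scores are also printed beside the percentiles, but whether they can be compared between lists is unknown. An input library of another series was not used here.

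Regions were the union of the 4 lists. With several peaks of 1 list in a region, the highest score counted. Start sites are the 5′ ends of all transcripts in GENCODE M1 on NCBIM37, the assembly named mm9. Every region lay within its chromosome on all 21 chromosomes. The motif search covered both strands, 100 bp to either side of a region's centre. Counts of peaks were compared with an exact permutation test. Counts of regions were set beside those over all regions, without a test. Merging and ranking were tested on simulated lists. The members, the gene list and the motifs were chosen with earlier results of these data known. The genes named are the members, the genes nearest to their regions, the closest 3 profiles per member, and list genes with a forskolin-only region within 10 kb, plus Rxra, Spp1 and Bglap. Of the list genes, 1 is not reported here. Pomc, Th and Slc6a3 were named after their values were seen. Nothing in the lists gives read totals, so the precision of a single peak is unknown, and tag numbers rest on the assumption that a score step is 1 tag. Python 3.11.15, numpy 2.4.6 and matplotlib 3.10.9 were used.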

Additional observations from a re-analysis of the deposited data

How the results depend on the processing

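Restricting the loci to regions inside the genes or within 10 kb left 1 forskolin-only region, the intronic one of Nr4a3, along with 5 regions of all 4 libraries and 1 region with a full CRE. The vehicle-only count was 0 with peaks within 500 bp joined and 0 with the top 50% of each list, and it was 1 to 2 when each library was left out in turn, the 2 without vehicle replicate 2. The forskolin-only count was 5 of 17 regions at equal list lengths (10% of all regions) and 6 of 15 with the top 50% of each list (20.6%). The difference in peaks fell to 3.5 at equal list lengths and to 0.5 within 10 kb, and was 5.5 to 7.5 when each library was left out. The median percentile difference of the shared regions was 13.6 points with whole lists, 5.97 at equal list lengths, 4.76 among shared regions and 7.6 within 50 kb. It was 19.8 points within 10 kb, and 9.49 to 17.6 when each library was left out in turn. Of 74 differences of single regions under alternatives, 62 moved by less than the spread between replicates, 6 moved by more and 6 changed sign. When a library was left out, the shift could not exceed this spread by construction. Those alternatives could show a change of sign but no larger move, so their share of the 62 is no measure of stability. The 6 that moved by more were at regions nearest to a member. With the top 50% of each list the differences were 50.4 points at -33 bp and 9.3 at -20348 bp of Nr4a1, 39.6 at -1727 bp and 15.2 at 45 bp of Nr4a2, and 8.9 at -80 bp of Nr4a3. Cutting a list to its top 50% stretches its percentile scale, so these larger differences follow from the cut and do not mean a larger change. At equal list lengths the difference at -20348 bp was 3.9 points. All sign changes were at regions nearer to another gene. At 17175 bp from Nr4a1 the difference was -11.3 points at equal list lengths, -6.1 among shared regions and -1.3 to 11.7 when each library was left out in turn, the lowest without vehicle replicate 2 and the highest without vehicle replicate 1. At -58057 bp from Nr4a2 it was -6.5 among shared regions and -8.5 to 35.7 when each library was left out, with the same libraries at the ends. At 73774 bp from Nr4a3 it was -2.9 among shared regions, against 14.8 with whole lists and 9.5 without vehicle replicate 2. The cause of the sign changes was not tested. With the replicate number as a block, the difference in peaks was 6.5 with an exact sign-flip permutation p of 0.5, the smallest value for 2 pairs. Same-numbered libraries share only a number, and their deviations over the 8930 shared regions correlated at 0.188. Read totals were not used here, so the limit that depth sets on weak regions is unknown.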
